A study of Canis lupus familiaris with 12 samples.

Results

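C2 cells, a line derived from a canine mast cell tumour, were compared on microarrays after 24 h with 100 nM masitinib mesylate and before treatment. The comparison uses 6 of the 12 arrays of the study, chosen by their labels: the 3 arrays labelled masitinib and 24 h, and the 3 labelled control and 0 h. The other 6 arrays, 3 at 12 h and 3 at 72 h with the same dose, enter the shared estimate of the spread and the direct tests between treated times. C2 carries a tandem duplication in the juxtamembrane part of KIT, so that all groups share a ligand-independent receptor. Masitinib is an oral inhibitor of KIT, platelet-derived growth factor receptors and several SRC family kinases. The untreated arrays come from flasks harvested when the inhibitor was added. All flasks hold the same line, RNA was taken from a part of each flask's cell pellet, and the replicates are flasks, with nothing said of separately established cultures, so the p-values cover only the spread between these flasks, which may be technical. Untreated cultures of 24 h are not analysed here, and effects of the inhibitor and of a day in culture cannot be told apart. In such bulk RNA fewer cells of a kind and less RNA per cell cannot be told apart either.

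KIT is the receptor for stem cell factor, on which mast cells depend for growth and survival. When active it recruits adaptors that switch on the RAS and ERK cascade and phosphoinositide 3-kinase (PI3K). ERK raises immediate early genes and G1 cyclins and at the same time its own inhibitors, the dual specificity phosphatases and Sprouty-related proteins. PI3K acts through AKT, which keeps the FOXO transcription factors out of the nucleus, and through mTOR, which promotes ribosome production and the synthesis of nucleotides, lipids and amino acids. Differentiated mast cells store histamine and proteases in granules related to lysosomes, carry the IgE receptor, and make leukotrienes and prostaglandins.

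Expression is given as the deposited log2 value of a probe set, so that a difference of 1 is a 2-fold difference. Genes are represented by their probe set with the highest mean over the 12 arrays. Other probe sets are mentioned for some genes only, and those left unmentioned need not have passed. A gene was said to have risen or fallen when the Benjamini-Hochberg adjusted p from limma was under 0.001 over all 42924 probe sets and the change exceeded 1.5-fold. Changes are 24 h minus 0 h unless stated otherwise, with 3 arrays per group and, where given, the fit's standard error (SE). Levels are compared between arrays and not between genes, since probe sets differ in brightness. Where a gene was picked for its call, non-overlap of its arrays adds no independent support.

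After 24 h 1211 of 15115 genes had risen (8.01%) and 1512 had fallen (10.0%). Counts within the gene lists below are to be read beside these shares. All lists were chosen with earlier results of these data known, so their directions are no independent evidence. Falls reached further than rises: 195 genes fell and 54 rose by more than 4-fold, and 766 fell and 486 rose by more than 2-fold. The 3 treated arrays all lay above the 3 untreated arrays for 28.2% of the genes and all below them for 24.8%. Calls were rare among dim genes. When the genes were ordered by mean level and divided into 4 bins, 17 rose and 45 fell of the 3781 in the lowest bin, and 569 rose and 659 fell of the 3778 in the highest. Among the 29254 probe sets that carry a single symbol, 2039 rose and 2914 fell, so that 58.8% of the calls were falls. The deposited values are quantile normalised, which holds the arrays to a common distribution. When the arrays were instead scaled to the bacterial poly-A controls added to each sample, 536 rose and 14140 fell, 96.3% of the calls were falls, and the median change of all probe sets was -0.57. These controls read 8.45 ± 0.138 at 0 h and 9.05 ± 0.139 at 24 h (SD, n = 3). All changes are therefore changes relative to the bulk of the transcripts. With this scaling 899 of the 1211 risen genes lost their call. The study does not state whether the amount of these controls per RNA or per cell was constant. A difference in the amount added and a shift of most transcripts therefore cannot be told apart, and neither scaling is taken as the true one.

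**Figure D1:**
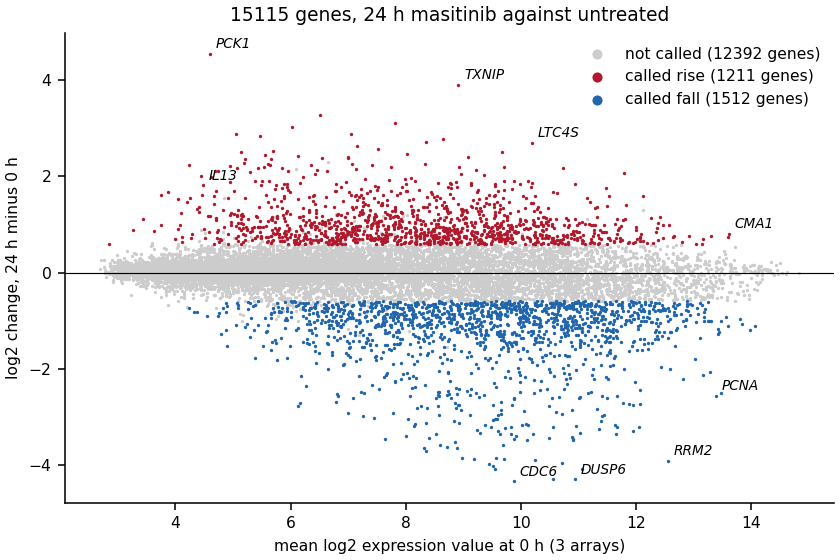
Log2 change at 24 h (vertical axis, 24 h minus 0 h) against the mean log2 expression value at 0 h (horizontal axis, mean of 3 arrays) for 15115 genes, with called rises in red, called falls in blue and other genes in grey. The falls extend to -4.33 (CDC6) and the rises to 4.54 (PCK1), and few genes at the left edge of the plot were called.

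Pearson's r across probe sets was 0.9964 to 0.9979 between arrays of the same group and 0.973 to 0.9755 between a 0 h and a 24 h array. The actin probe set at the 3' end exceeded that at the 5' end by 2.72 ± 0.266 at 0 h and 2.55 ± 0.236 at 24 h, and for GAPDH the difference was 0.626 ± 0.0599 and 0.546 ± 0.182 (log2, SD, n = 3). Of 12 measured mast cell markers 10 had a mean level over 7 at 0 h. At 24 h 6 of the 12 had risen, beside 8.01% of all genes, and none had fallen. With poly-A scaling none rose and 1 fell. The defining T cell, B cell and monocyte markers given here did not pass the test. The T cell receptor component CD3E read 6.40, 6.18 and 6.50 at 0 h and 6.45, 6.37 and 6.38 at 24 h, the B cell marker CD79A 4.62, 4.63 and 4.91 at 0 h and 5.11, 4.99 and 4.92 at 24 h, and the monocyte marker CD14 6.31, 6.14 and 6.30 at 0 h and 6.72, 6.43 and 6.46 at 24 h. For CD79A and CD14 every treated array lay above every untreated array, as for 28.2% of all genes. Of 10 measured T cell markers and 4 epithelial markers none passed the test. Among 12 macrophage, 7 B cell, 5 neutrophil and 3 erythroid markers 1 each rose (LYZ, JCHAIN, S100A8 and EPOR), and among 10 fibroblast and endothelial markers 2 rose (PECAM1 and KDR). The log2 levels of the macrophage markers summed to 74.1 to 74.6 over the untreated and 77.1 to 78.2 over the treated arrays, those of the B cell markers to 34.8 to 35.7 and 35.9 to 36.0, and those of the fibroblast and endothelial markers to 53.0 to 54.0 and 56.8 to 58.9. For neutrophil markers the sums were 25.4 to 25.8 and 27.1 to 28.0, and for erythroid markers 18.6 to 18.9 and 20.5 to 20.6. Those of the epithelial markers were 23.1 to 23.3 and 23.6 to 23.8. The T cell marker sums overlapped, at 55.3 to 57.0 and 56.8 to 57.3. Mast cell markers summed to 133.1 to 134.5 and 141.1 to 142.2. The part of other cell types in any result was not tested.

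The largest rise was that of PCK1, phosphoenolpyruvate carboxykinase of gluconeogenesis. Its values were 4.33, 4.84 and 4.64 at 0 h and 9.20, 9.07 and 9.16 at 24 h, a log2 change of 4.54 (SE 0.123, adjusted p = 3.89e-11), or 23.3-fold. The leading rises and falls were picked among genes whose groups did not overlap, so the separation of their arrays was fixed by the choice. 2 further probe sets of PCK1 did not pass the test, and the lowest of the 3 changes was 0.19. TXNIP, a thioredoxin-binding alpha-arrestin that limits glucose uptake, read 8.86, 8.88 and 8.99 at 0 h and 12.88, 12.73 and 12.78 at 24 h, a log2 change of 3.89 (SE 0.0668, adjusted p = 2.06e-12), and both of its probe sets rose. CREBRF, a regulator of CREB3 activity, read 6.83, 6.47 and 6.23 at 0 h and 9.60, 9.86 and 9.89 at 24 h, a log2 change of 3.27 (SE 0.192, adjusted p = 2.23e-08). The untreated arrays of CREBRF were spread over more than those of TXNIP, and 2 of 3 probe sets of CREBRF rose. VWA5A, a protein with a von Willebrand factor domain, read 7.86, 7.80 and 7.78 at 0 h and 10.92, 10.87 and 10.96 at 24 h, a log2 change of 3.10 (SE 0.0755, adjusted p = 1.89e-11). AOAH, which deacylates bacterial lipopolysaccharide, read 7.12, 7.07 and 6.93 at 0 h and 9.98, 9.84 and 9.94 at 24 h, a log2 change of 2.88 (SE 0.0671, adjusted p = 1.33e-11). In both genes the arrays of each group lay close together. LXN, the carboxypeptidase inhibitor latexin, read 8.60, 8.66 and 8.70 at 0 h and 11.46, 11.34 and 11.46 at 24 h, a log2 change of 2.77 (SE 0.0607, adjusted p = 8.84e-12), and all 4 of its probe sets rose. The calcium sensor genes HPCAL4 and VSNL1, the lipid transfer gene ESYT3, the endoplasmic reticulum gene REEP3 and CPE, a prohormone carboxypeptidase, rose by 3.02, 2.88, 2.84, 2.53 and 2.51. REEP3 had the widest spread of these, 6.05, 5.62 and 5.42 at 0 h and 7.73, 8.69 and 8.27 at 24 h. VSNL1 and REEP3 have 2 probe sets each, of which 1 rose, and the others changed by 0.04 and 0.77.

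Most of the largest falls were of genes of DNA replication and cell division. CDC6, which loads the replicative helicase at origins, read 9.88, 9.95 and 9.78 at 0 h and 5.60, 5.42 and 5.62 at 24 h, a log2 change of -4.33 (SE 0.0759, adjusted p = 2.06e-12), or 20.1-fold lower. DUSP6, the cytoplasmic phosphatase of ERK, read 10.92, 10.97 and 10.93 at 0 h and 6.78, 6.61 and 6.57 at 24 h, a log2 change of -4.29 (SE 0.0843, adjusted p = 4.23e-12). MIS18A, needed for the deposition of centromeric histone, read 10.53, 10.53 and 10.59 at 0 h and 6.39, 6.15 and 6.27 at 24 h, a log2 change of -4.28 (SE 0.114, adjusted p = 3.24e-11). Non-overlap of the groups was again a condition of the choice. Every probe set of these 3 genes fell. MELK, a kinase of dividing cells, read 11.06, 11.01 and 11.09 at 0 h and 7.03, 6.86 and 7.03 at 24 h, a log2 change of -4.08 (SE 0.068, adjusted p = 2.06e-12), with 2 of 3 probe sets fallen. NEIL3, a DNA glycosylase for replication-linked damage, read 9.51, 9.52 and 9.54 at 0 h and 5.94, 5.41 and 5.20 at 24 h, a log2 change of -4.01 (SE 0.157, adjusted p = 6.46e-10). MELK was tightly grouped in both conditions, while the treated arrays of NEIL3 were spread from 5.20 to 5.94. FBXO5, the inhibitor of the anaphase-promoting complex, fell by 3.88, ECT2, an exchange factor of cytokinesis, by 3.85, and MND1, a recombination factor best known from meiosis, by 3.85.

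**Figure D2:**
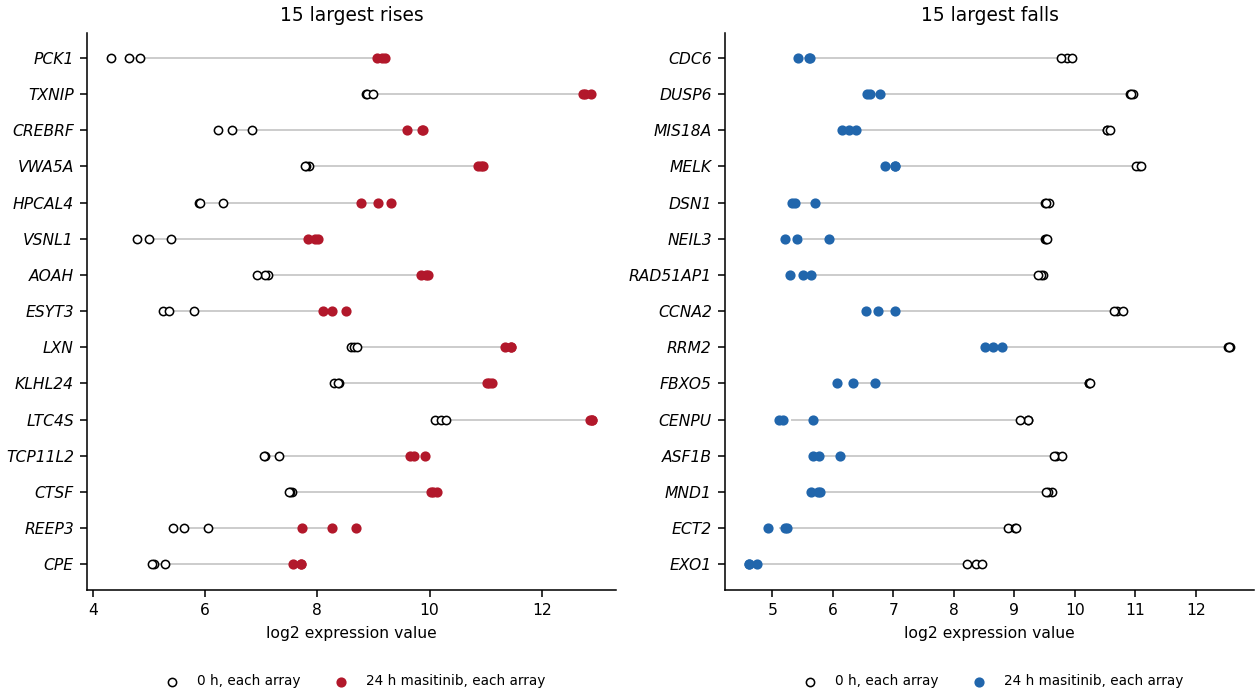
Log2 expression values (horizontal axis) on each of the 3 arrays at 0 h (open circles) and 24 h (filled circles) for the 15 genes with the largest rises (left, red) and the 15 with the largest falls (right, blue) among genes whose groups did not overlap; grey lines join the group means. PCK1 moved from values below 5 to 9.07 to 9.20, and RRM2 from 12.54 to 12.57 down to 8.51 to 8.79.

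Of the genes of masitinib's target kinases and the KIT ligand, 16 were measured, 1 rose and 1 fell. These shares of 6.25% each are near the 8.01% and 10.0% of all genes. The median change was 0.09, and with poly-A scaling none rose, 6 fell and the median was -0.51. KIT itself read 12.63, 11.94 and 11.75 at 0 h and 13.16, 13.66 and 13.43 at 24 h. All treated arrays lay above all untreated arrays, and the difference of 1.31 (SE 0.285) missed the threshold at an adjusted p of 0.00232. The untreated replicate 1 was the nearest to the treated arrays, and without it the difference was 1.57 and passed. Leaving out the nearest array widens a difference by construction, and KIT did not pass when any other single array was left out. The SRC family gene YES1 read 8.52, 8.42 and 8.48 at 0 h and 7.78, 7.83 and 7.89 at 24 h, a log2 change of -0.64 (SE 0.0594, adjusted p = 1.56e-06), with the other 2 probe sets not passing. DDR1, a collagen receptor kinase, read 5.89, 6.00 and 5.81 at 0 h and 6.99, 6.45 and 6.54 at 24 h, a log2 change of 0.76 (SE 0.12, adjusted p = 0.000179). Of its 3 probe sets 1 passed, and the lowest change was -0.02. Without the untreated replicate 3 the change of DDR1 was 0.72 and no longer passed, and it did not pass with only the 6 arrays in the fit or with poly-A scaling. LYN, the SRC family kinase next to the IgE receptor, read 10.53, 10.55 and 10.52 at 0 h and 10.63, 10.38 and 10.47 at 24 h, a difference of -0.04 (SE 0.0731) with overlapping groups. FYN differed by 0.51 (SE 0.0882), with non-overlapping arrays but under 1.5-fold.

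Of 15 measured feedback inhibitors and targets of ERK 8 fell and 1 rose, with a median of -0.71, against 0.03 over all genes. After DUSP6 the largest fall was that of ETV5, an ETS transcription factor under ERK control, which read 8.44, 8.51 and 8.26 at 0 h and 4.83, 5.00 and 5.11 at 24 h, a log2 change of -3.42 (SE 0.124, adjusted p = 3.41e-10). Its relative ETV4 read 6.66, 7.14 and 6.90 at 0 h and 5.97, 5.71 and 5.82 at 24 h, a log2 change of -1.07 (SE 0.128, adjusted p = 1.7e-05). SPRED1, a Sprouty-related inhibitor of RAF activation, read 7.43, 7.79 and 7.73 at 0 h and 5.59, 5.51 and 5.47 at 24 h, a log2 change of -2.13 (SE 0.114, adjusted p = 9.76e-09). None of these groups overlapped. Further phosphatase genes fell less: DUSP5 by 1.02, DUSP1 by 0.80 and DUSP7 by 0.71. The SPRED relatives SPRED2 and SPRED3 and the Sprouty genes SPRY1 and SPRY4 had differences of -0.10, -0.09, -0.02 and 0.20 and did not pass. The exception was TRIB1, a pseudokinase that guides protein degradation, at 6.54, 6.68 and 6.68 at 0 h and 8.84, 8.58 and 8.78 at 24 h, a log2 change of 2.10 (SE 0.0871, adjusted p = 1.03e-09), with 1 of 3 probe sets passing. Between 12 h and 24 h 3 members rose, among them TRIB1 by 1.29, and none fell, beside 1.41% and 3.10% of all genes.

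Immediate early genes, the first transcription factor genes to answer growth signals, gave 3 falls and 1 rise among 16 measured, with a median of 0.02. The shares were 18.8% fallen and 6.25% risen, beside 10.0% and 8.01% of all genes. With poly-A scaling there were no rise, 8 falls and a median of -0.59. EGR1 read 8.64, 8.36 and 8.67 at 0 h and 6.13, 5.92 and 5.99 at 24 h, a log2 change of -2.54 (SE 0.16, adjusted p = 4.28e-08). FOS, a subunit of AP-1, read 7.87, 7.90 and 7.94 at 0 h and 6.43, 6.26 and 6.65 at 24 h, a log2 change of -1.45 (SE 0.108, adjusted p = 1.92e-07). Only 1 of the 2 probe sets of FOS fell, and the other differed by -0.02. The treated arrays of both genes lay more than 1 log2 unit below the untreated ones. FOS had been lower still at 12 h: directly tested, it was higher at 24 h than at 12 h by 1.03 (adjusted p = 2.24e-05) and higher at 72 h than at 24 h by 1.76 (adjusted p = 4.26e-07). EGR1 was likewise higher at 72 h than at 24 h, by 1.01 (adjusted p = 0.000665). IER2 fell by 0.61. JUN, the partner of FOS, read 5.96, 5.55 and 5.32 at 0 h and 6.25, 6.28 and 6.29 at 24 h, a log2 change of 0.66 (SE 0.126, adjusted p = 0.000906), a rise that lost its call when any single array other than the untreated replicate 1 was left out (0.52 to 0.67), and with poly-A scaling. The other members, such as FOSB at -0.13, JUNB at 0.08 and NR4A1 at 0.23, did not pass.

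In the insulin receptor and PI3K pathway 6 of 25 measured genes rose and none fell, with a median of 0.08. With poly-A scaling 2 rose and 8 fell, and the median was -0.52. DEPTOR, an inhibitory subunit of mTOR complexes, read 8.15, 7.58 and 7.41 at 0 h and 9.47, 9.79 and 9.66 at 24 h, a log2 change of 1.92 (SE 0.191, adjusted p = 2.95e-06). PIK3IP1, a membrane protein that inhibits PI3K, read 5.48, 5.76 and 5.48 at 0 h and 7.15, 7.31 and 7.08 at 24 h, a log2 change of 1.61 (SE 0.128, adjusted p = 3.84e-07), with 2 of 3 probe sets risen. In both genes the groups were separate, although untreated DEPTOR was spread from 7.41 to 8.15. The catalytic subunit gene PIK3CA read 7.22, 7.40 and 7.25 at 0 h and 8.49, 8.33 and 8.30 at 24 h, a log2 change of 1.09 (SE 0.0774, adjusted p = 1.32e-07), and the receptor IGF1R read 6.33, 6.42 and 6.30 at 0 h and 7.39, 7.21 and 7.25 at 24 h, a log2 change of 0.94 (SE 0.0906, adjusted p = 2.37e-06). INPP4B, a lipid phosphatase opposing PI3K, and TSC2, an inhibitor of mTOR activation, rose by 0.75 and 0.65. For IGF1R 2 of 4 probe sets rose, and for INPP4B 1 of 3. The calls of PIK3CA, IGF1R, INPP4B and TSC2 were lost with poly-A scaling. AKT1 (-0.23), MTOR (-0.29), INSR (0.06) and IRS2 (0.08) did not pass.

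FOXO genes and genes known from quiescent cells rose together, 12 of 20 measured, and none fell. Their median was 1.46. With poly-A scaling it was 0.85, with 10 rises and 1 fall, and FOXO1 and FOXO3 lost their calls. Like the other lists, this list was written with earlier results in view, so its direction is no independent evidence. Beside TXNIP and CREBRF, KLHL24, a substrate adaptor of ubiquitin ligases, read 8.30, 8.39 and 8.36 at 0 h and 11.11, 11.06 and 11.02 at 24 h, a log2 change of 2.71 (SE 0.0681, adjusted p = 2.31e-11). TCP11L2 read 7.32, 7.07 and 7.05 at 0 h and 9.66, 9.92 and 9.72 at 24 h, a log2 change of 2.62 (SE 0.105, adjusted p = 7.61e-10), with all 4 probe sets risen. SESN1, a sestrin that restrains mTORC1, read 9.08, 9.17 and 9.13 at 0 h and 10.99, 10.99 and 11.02 at 24 h, a log2 change of 1.87 (SE 0.0693, adjusted p = 3.99e-10). Each of these had treated arrays at least 1.5 log2 units above the untreated ones. CCNG2, an atypical cyclin of arrested cells, read 8.71, 8.87 and 8.80 at 0 h and 10.61, 10.51 and 10.51 at 24 h, a log2 change of 1.75 (SE 0.0743, adjusted p = 1.25e-09). The transcription factors themselves rose too, FOXO1 by 1.06 and FOXO3 by 1.01, and so did the repressor BCL6 by 1.72 and the translation inhibitor PDCD4 by 1.75. FOXO4 differed by 0.05 and SESN2 by -0.24, neither past the test. For CBLB, a ubiquitin ligase of receptor signalling, the difference of 1.55 (SE 0.372, adjusted p = 0.00473) did not pass either.

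Within the MYC network 2 of 12 measured genes rose and 1 fell, or 1 and 3 with poly-A scaling. The shares of 16.7% and 8.33% stand beside 8.01% and 10.0% of all genes. MYC read 9.89, 9.83 and 9.87 at 0 h and 9.80, 9.55 and 9.66 at 24 h, a difference of -0.19 (SE 0.0672, adjusted p = 0.0375) well under 1.5-fold, and at 72 h it was higher than at 24 h by 0.61 (adjusted p = 4e-05). MXD4, a repressor that competes with MYC for MAX, read 7.10, 7.28 and 7.28 at 0 h and 9.08, 8.86 and 8.91 at 24 h, a log2 change of 1.73 (SE 0.0854, adjusted p = 4.65e-09). MXD4 fell back between 24 h and 72 h, by 0.74 (adjusted p = 6.09e-05). MXD1 rose by 0.65, a change that was 0.57 and under 1.5-fold without the untreated replicate 1. MYCN read 7.02, 7.03 and 7.02 at 0 h and 6.30, 5.93 and 6.06 at 24 h, a log2 change of -0.93 (SE 0.12, adjusted p = 3.51e-05), with 1 of 2 probe sets passing. With poly-A scaling MXD1 lost its call, and MYC itself was lower by a log2 change of -0.80 and passed.

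Among JAK, STAT and SOCS genes of cytokine signalling, 3 of 20 measured rose and 1 fell, with a median of 0.16, and no rise, 6 falls and a median of -0.45 with poly-A scaling. The erythropoietin receptor gene EPOR read 6.96, 7.08 and 7.10 at 0 h and 8.19, 8.03 and 8.03 at 24 h, a log2 change of 1.03 (SE 0.0669, adjusted p = 5.34e-08). SOCS2, a feedback inhibitor induced by STAT5, read 8.54, 8.56 and 8.50 at 0 h and 7.80, 7.80 and 7.88 at 24 h, a log2 change of -0.71 (SE 0.0642, adjusted p = 1.29e-06). SOCS5 and JAK1 rose by 0.71 and 0.65, while 4 of the 5 probe sets of JAK1 did not pass. CISH, another STAT5-dependent feedback gene, differed by -0.37 (SE 0.0907, adjusted p = 0.00546) and did not pass. The calls of EPOR, SOCS5 and JAK1 were lost with poly-A scaling.

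Of 11 measured G1 cyclins, CDKs and CDC25 phosphatases 7 fell and none rose, with a median of -1.18. Cyclin E1 (CCNE1) read 8.52, 8.50 and 8.58 at 0 h and 5.92, 5.72 and 6.13 at 24 h, a log2 change of -2.61 (SE 0.0984, adjusted p = 4.59e-10). CDC25A, which removes inhibitory phosphate from CDK2, read 7.25, 7.03 and 6.95 at 0 h and 4.48, 4.30 and 4.62 at 24 h, a log2 change of -2.61 (SE 0.133, adjusted p = 6.28e-09). Cyclin D1 (CCND1) read 11.37, 11.18 and 11.20 at 0 h and 9.38, 9.15 and 9.25 at 24 h, a log2 change of -1.99 (SE 0.08, adjusted p = 8.04e-10). In all 3 every treated array lay below every untreated array. CCNE2 fell by 1.5 and CDK4 by 1.18. Cyclin D2 (CCND2) read 12.34, 12.34 and 12.34 at 0 h and 12.06, 11.95 and 11.95 at 24 h, a difference of -0.35 under 1.5-fold, and it was higher at 24 h than at 12 h by 0.69 (adjusted p = 3.49e-06). CDC25C, a mitotic phosphatase, fell by 2.39.

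CDK inhibitors and the retinoblastoma family moved in both directions, with 3 rises and 5 falls among 12 measured, or 1 and 6 with poly-A scaling. RBL2, the pocket protein of resting cells, read 8.94, 8.86 and 8.94 at 0 h and 10.41, 10.33 and 10.27 at 24 h, a log2 change of 1.42 (SE 0.0696, adjusted p = 4.27e-09), with 2 of 4 probe sets risen. RBL1, its relative in cycling cells, read 7.02, 7.35 and 7.21 at 0 h and 5.86, 5.86 and 5.64 at 24 h, a log2 change of -1.41 (SE 0.121, adjusted p = 7.82e-07), with 1 of 3 probe sets fallen and the highest change at 0.11. Neither pair of groups overlapped, and RB1 differed by 0.04 and did not pass. The inhibitor CDKN1B read 5.71, 5.99 and 5.50 at 0 h and 6.65, 6.93 and 6.77 at 24 h, a log2 change of 1.05 (SE 0.12, adjusted p = 1.11e-05), and like CDKN1A lost its call with poly-A scaling. CDKN1A rose by 0.63, in 1 of 3 probe sets, a call that was lost without the untreated replicate 1 or 2 or the treated replicate 1 or 3 (0.59 to 0.63). It was higher again at 72 h than at 24 h, by 0.92 (adjusted p = 3.71e-05). LIN9 and LIN54, subunits of the complex that joins these pocket proteins to cell cycle promoters, fell by 2.42 and 1.19, LIN54 with untreated arrays spread from 4.43 to 5.34 and a call that was lost without the untreated replicate 3 or the treated replicate 1 or 2 (-1.20 to -1.14). Of 9 E2F factors and partners 4 fell and none rose. E2F8 read 8.34, 8.33 and 8.44 at 0 h and 5.72, 5.23 and 5.77 at 24 h, a log2 change of -2.80 (SE 0.132, adjusted p = 3.26e-09). E2F5, E2F4 and E2F1 fell by 0.91, 0.69 and 0.66, and E2F1 lost its call without the untreated replicate 2 or any single treated replicate (-0.67 to -0.52).

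The genes that license origins and form the replicative helicase fell as a group, 22 of 24 measured, against 10.0% of all genes, with a median of -2.31. ORC1, the ATPase subunit that helps mark origins, read 10.96, 10.88 and 10.83 at 0 h and 7.63, 7.35 and 7.49 at 24 h, a log2 change of -3.40 (SE 0.104, adjusted p = 8.34e-11). MCM2, a helicase subunit, read 9.74, 9.83 and 9.90 at 0 h and 6.84, 6.31 and 6.31 at 24 h, a log2 change of -3.34 (SE 0.128, adjusted p = 5.2e-10). CDC45, which activates the helicase, read 8.83, 8.95 and 8.99 at 0 h and 5.94, 5.63 and 5.84 at 24 h, a log2 change of -3.12 (SE 0.095, adjusted p = 8.25e-11). All 6 core helicase subunit genes, MCM2 to MCM7, fell, by changes from -3.34 to -1.10 with a median of -2.51, and MCM6 had the smallest. Only ORC3 (-0.30) and CDT1 (0.27) did not pass. Of these genes 16 fell further between 12 h and 24 h, where 3.10% of all genes did, and between 24 h and 72 h 1 rose and 1 fell.

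Fork genes fell in 22 of 27 measured cases with a median of -1.51. POLE2, an accessory subunit of the leading strand polymerase, read 10.20, 10.20 and 10.22 at 0 h and 6.91, 6.84 and 6.85 at 24 h, a log2 change of -3.34 (SE 0.0542, adjusted p = 2.06e-12). FEN1, the flap nuclease of lagging strand synthesis, read 10.55, 10.60 and 10.50 at 0 h and 7.54, 7.15 and 7.34 at 24 h, a log2 change of -3.21 (SE 0.112, adjusted p = 2.46e-10), with 2 of 3 probe sets fallen. PCNA, the sliding clamp, read 13.39, 13.40 and 13.37 at 0 h and 10.90, 10.72 and 10.89 at 24 h, a log2 change of -2.55 (SE 0.0629, adjusted p = 2.1e-11). The treated arrays of these genes were all at least 2 log2 units below the untreated arrays. TOP2A, the topoisomerase of chromosome separation, read 11.86, 11.39 and 10.97 at 0 h and 8.21, 8.53 and 8.59 at 24 h, a log2 change of -2.97 (SE 0.278, adjusted p = 1.77e-06), with a wide spread at 0 h. RPA2, which binds exposed DNA strands, fell by 2.60, and by 2.27 between 12 h and 24 h (adjusted p = 1.13e-10). TOP2B, the isoform of non-dividing cells, differed by 0.37 and TOP1 by -0.06, neither past the test.

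Nucleotide synthesis genes fell in 19 of 24 measured cases and rose in none, with a median of -0.99. The ribonucleotide reductase subunit RRM2 read 12.57, 12.54 and 12.55 at 0 h and 8.79, 8.51 and 8.64 at 24 h, a log2 change of -3.90 (SE 0.0817, adjusted p = 6.14e-12). Its partner RRM1 read 11.55, 11.49 and 11.51 at 0 h and 9.32, 9.28 and 9.34 at 24 h, a log2 change of -2.20 (SE 0.0527, adjusted p = 1.66e-11). The p53-inducible subunit RRM2B differed by -0.04 and did not pass. Thymidine kinase TK1 fell by 3.04, deoxycytidine kinase DCK by 2.41 and thymidylate synthase TYMS by 1.36. The purine pathway genes PPAT, PAICS, ADSL, GMPS, PFAS and ATIC fell by 1.81, 1.61, 1.51, 0.94, 0.81 and 0.75. For pyrimidines CAD, DHODH and UMPS fell by 1.08, 0.97 and 1.01.

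Of 24 measured mitotic cyclins, kinases and their regulators 20 fell, with a median of -2.87. Cyclin A2 (CCNA2) read 10.70, 10.79 and 10.65 at 0 h and 7.02, 6.74 and 6.54 at 24 h, a log2 change of -3.94 (SE 0.131, adjusted p = 1.69e-10). FOXM1, the transcription factor of the G2 and mitotic programme, read 9.67, 9.74 and 9.62 at 0 h and 6.23, 5.91 and 6.17 at 24 h, a log2 change of -3.57 (SE 0.0932, adjusted p = 2.84e-11), with 1 of 2 probe sets fallen. CDK1 read 11.61, 11.64 and 11.68 at 0 h and 8.50, 8.39 and 8.56 at 24 h, a log2 change of -3.16 (SE 0.118, adjusted p = 4.25e-10). The groups were apart by more than 3 log2 units in all 3 genes. The Aurora kinases AURKA and AURKB fell by 2.93 and 2.27, and PLK1 and PLK4 by 2.46 and 3.64. At 12 h the median of this list had been -0.30, with 6 falls. Between 12 h and 24 h 19 of the 24 fell, where 3.10% of all genes did. The ubiquitin-conjugating enzyme UBE2C (-0.05) and the adaptor FZR1 (0.13), both of the anaphase-promoting complex, did not pass, nor did WEE1 (-0.52), which holds CDK1 inactive.

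At centromeres and kinetochores 28 of 33 genes fell, with a median of -2.54, and all 33 had treated arrays entirely below the untreated ones, against 24.8% of all genes. DSN1, of the MIS12 complex, read 9.58, 9.50 and 9.53 at 0 h and 5.71, 5.32 and 5.37 at 24 h, a log2 change of -4.07 (SE 0.149, adjusted p = 3.66e-10). NDC80, which grips microtubules, read 11.66, 11.69 and 11.66 at 0 h and 9.22, 9.03 and 9.10 at 24 h, a log2 change of -2.55 (SE 0.0698, adjusted p = 4.03e-11). The centromeric histone gene CENPA read 9.37, 9.90 and 9.57 at 0 h and 8.62, 7.93 and 8.50 at 24 h, a log2 change of -1.26 (SE 0.244, adjusted p = 0.000992), and lost the call when any single array of either group was left out, with values from -1.40 to -1.05. Both of the 2 probe sets of CENPA fell, and the other changed by -2.72. Of 11 mitotic kinesins 9 fell with a median of -2.04, and none of these 9 had passed at 12 h. KIF11, the motor that separates spindle poles, read 9.74, 9.59 and 9.48 at 0 h and 6.70, 6.71 and 6.52 at 24 h, a log2 change of -2.96 (SE 0.0805, adjusted p = 3.95e-11). KIF22 fell again between 24 h and 72 h, by 0.74 (adjusted p = 1.88e-05). KIF2C (-0.11) and KIF18B (-0.01) did not pass.

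Condensin folds chromosomes for mitosis, and cohesin holds sister chromatids together. Of the 8 condensin subunits measured 7 fell, with a median of -1.96 and NCAPH lowest at 9.90, 9.91 and 9.96 at 0 h and 6.55, 6.62 and 6.47 at 24 h, a log2 change of -3.38 (SE 0.0784, adjusted p = 1.31e-11). Only NCAPH2, of condensin II, did not pass (-0.27). Of 9 cohesin subunits and regulators 4 fell and 1 rose, with a median of -0.44. SMC1A fell by 1.49 and SMC3 by 0.82, while the ring-closing subunit RAD21 read 13.25, 13.33 and 13.26 at 0 h and 12.99, 12.99 and 12.98 at 24 h, a difference of -0.29 under 1.5-fold. The cohesin acetylases differed in direction: ESCO2, active in S phase, read 8.98, 8.92 and 8.94 at 0 h and 6.10, 5.98 and 6.24 at 24 h, a log2 change of -2.84 (SE 0.0966, adjusted p = 1.98e-10), and ESCO1 rose by 0.64. In the whole list of 22 ring complex genes ESCO1 and NIPBL, the cohesin loader (0.62), were the 2 rises, and without any single array other than the treated replicate 1 there was 1. Neither rise was called with poly-A scaling.

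Recombination and Fanconi repair genes fell in 19 of 30 measured cases and rose in 1, with a median of -1.12. EXO1, an end-resecting nuclease, read 8.22, 8.36 and 8.46 at 0 h and 4.62, 4.62 and 4.74 at 24 h, a log2 change of -3.69 (SE 0.112, adjusted p = 7.91e-11). BRCA2 fell by 2.75, BRCA1 by 1.00, FANCD2 by 2.41 and FANCI by 2.34. The checkpoint kinase CHEK1 differed by -0.28 (adjusted p = 0.00199) and ATM by 0.43, neither past the test, and NBN, a strand break sensor, rose by 0.80, without a call under poly-A scaling. Genes that rebuild chromatin behind the fork fell in 16 of 26 cases. ASF1B, a histone chaperone of dividing cells, read 9.69, 9.79 and 9.66 at 0 h and 6.12, 5.67 and 5.77 at 24 h, a log2 change of -3.86 (SE 0.0998, adjusted p = 2.69e-11), whereas its paralogue ASF1A differed by -0.28 and did not pass. The maintenance methyltransferase DNMT1 fell by 1.52 and its recruiter UHRF1 by 1.44, while DNMT3A differed by 0.36 without passing. EZH2, the Polycomb methyltransferase, read 10.88, 10.85 and 10.81 at 0 h and 8.70, 8.52 and 8.74 at 24 h, a log2 change of -2.19 (SE 0.0751, adjusted p = 2.08e-10), and its paralogue EZH1 differed by 0.09 and did not pass. For SUV39H1, which fell by 2.29, a second probe set rose and a further 1 did not pass.

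**Figure D3:**
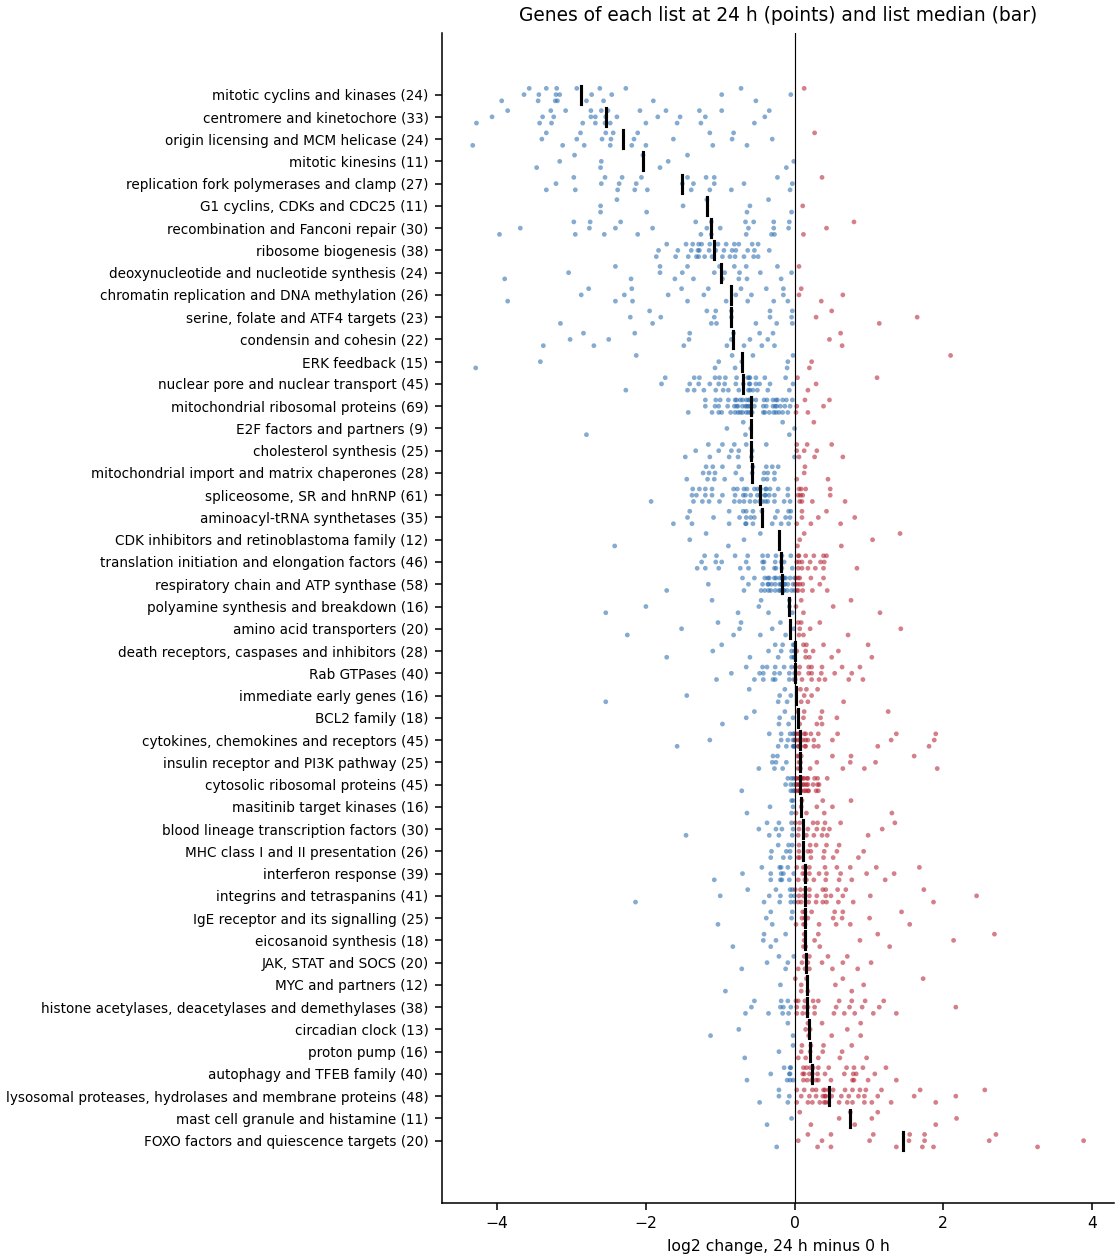
Log2 change at 24 h (horizontal axis, 24 h minus 0 h) of every measured gene (points, red above 0 and blue below) in gene lists with at least 8 measured members, with the number measured in brackets and a black bar at the median. Medians run from -2.87 for mitotic cyclins and kinases to 1.46 for FOXO factors and quiescence targets; with poly-A scaling the medians between 0 and 0.46 fall below 0.

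Ribosome production genes fell in 32 of 38 measured cases, against 10.0% of all genes, with a median of -1.08. For all 38 every treated array lay below every untreated array, against 24.8% of all genes. MYBBP1A, a nucleolar regulator of RNA polymerase I, read 9.56, 9.60 and 9.51 at 0 h and 7.81, 7.75 and 7.54 at 24 h, a log2 change of -1.86 (SE 0.0785, adjusted p = 1.19e-09). NOP2, a ribosomal RNA methyltransferase, read 10.71, 10.84 and 10.82 at 0 h and 9.11, 9.05 and 9.05 at 24 h, a log2 change of -1.72 (SE 0.0791, adjusted p = 2.56e-09). NHP2, of the RNA-modifying H/ACA particles, read 12.00, 12.02 and 12.01 at 0 h and 10.49, 10.37 and 10.38 at 24 h, a log2 change of -1.60 (SE 0.0567, adjusted p = 2.79e-10). Nucleolin (NCL) and nucleophosmin (NPM1), major nucleolar proteins, fell by 0.63 and 0.92. This group was already at a median of -0.97 with 28 falls at 12 h. Between 12 h and 24 h only 2 members fell and 1 rose, beside 3.10% and 1.41% of all genes.

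Among ribosomal proteins of the cytosol 1 of 45 measured fell and none rose, and the median was 0.08, or -0.53 with poly-A scaling. The fall was that of RPL26, at 10.73, 10.74 and 10.78 at 0 h and 10.00, 10.17 and 9.95 at 24 h, a log2 change of -0.71 (SE 0.0718, adjusted p = 3.47e-06). Their counterparts in mitochondria fell in 35 of 69 cases and rose in none, with a median of -0.59. MRPS10 read 9.24, 9.44 and 9.33 at 0 h and 7.88, 7.91 and 7.93 at 24 h, a log2 change of -1.43 (SE 0.0829, adjusted p = 1.98e-08), and MRPL12 read 10.40, 10.47 and 10.43 at 0 h and 9.39, 9.11 and 9.20 at 24 h, a log2 change of -1.20 (SE 0.0923, adjusted p = 2.61e-07). Mitochondrial import and matrix chaperone genes fell in 13 of 28 cases with a median of -0.57, among them the chaperonin HSPD1 at 13.46, 13.41 and 13.39 at 0 h and 12.27, 12.26 and 12.23 at 24 h, a log2 change of -1.17 (SE 0.0589, adjusted p = 5.51e-09), and the intermembrane space chaperone TIMM8A by 1.45. Respiratory chain genes gave 5 falls among 58 measured (8.62%, a share near the 10.0% of all genes), with a median of -0.17. For 39 of the 58 every treated array lay below every untreated array, against 24.8% of all genes. For 8 every treated array lay above, against 28.2%. With poly-A scaling 44 of the respiratory chain genes fell, and the median was -0.77. Cytochrome c (CYCS), the mobile electron carrier that also activates caspases when released, read 11.59, 11.68 and 11.62 at 0 h and 9.95, 9.86 and 9.94 at 24 h, a log2 change of -1.72 (SE 0.064, adjusted p = 4.29e-10), and its reductase subunit CYC1 fell by 1.16.

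Aminoacyl-tRNA synthetase genes fell in 13 of 35 cases and rose in 2. Of 18 cytosolic enzymes 11 fell, with a median of -0.67, and of 15 mitochondrial ones none fell, with a median of -0.08; the difference between the compartments was not tested. The methionine enzyme MARS1 read 10.00, 10.17 and 10.17 at 0 h and 8.60, 8.38 and 8.45 at 24 h, a log2 change of -1.63 (SE 0.073, adjusted p = 1.99e-09). The subunits of the phenylalanine enzyme, FARSA and FARSB, fell by 1.44 and 1.38, while its mitochondrial counterpart FARS2 rose by 0.62. QARS1, for glutamine, rose by 0.81. Without the untreated or the treated replicate 1 the list had 1 rise. Of 46 translation factors 13 fell and 1 rose. The cap-binding factor EIF4E read 10.57, 10.59 and 10.58 at 0 h and 9.24, 9.28 and 9.45 at 24 h, a log2 change of -1.25 (SE 0.0629, adjusted p = 5.32e-09). EIF2S1, of the initiator tRNA complex, read 11.73, 11.73 and 11.52 at 0 h and 10.47, 10.48 and 10.43 at 24 h, a log2 change of -1.20 (SE 0.078, adjusted p = 5.43e-08). EIF4B, a helper of the RNA helicase, rose by 0.84, and EIF4EBP1, the repressor of EIF4E, differed by -0.43 without passing. Elongation factors EEF1A1 and EEF2 differed by 0.06 and 0.39 and did not pass. The rises of QARS1, FARS2 and EIF4B lost their calls with poly-A scaling.

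Nuclear pore and transport genes fell in 29 of 45 cases and rose in 1, with a median of -0.69. NUP160, of the pore's outer scaffold, read 7.85, 7.84 and 7.74 at 0 h and 5.60, 5.39 and 5.65 at 24 h, a log2 change of -2.27 (SE 0.0784, adjusted p = 2.26e-10). RANBP1, which acts on the RAN GTPase, read 13.02, 13.03 and 13.01 at 0 h and 11.27, 11.16 and 11.25 at 24 h, a log2 change of -1.79 (SE 0.061, adjusted p = 1.98e-10). Importin KPNA2 fell by 1.01, and XPO5, the exporter of microRNA precursors, rose by 1.11. Of 61 splicing genes 25 fell and 1 rose with a median of -0.47. SNRPA1, of the U2 particle, read 11.57, 11.51 and 11.54 at 0 h and 9.67, 9.55 and 9.62 at 24 h, a log2 change of -1.93 (SE 0.0569, adjusted p = 6.8e-11). The SR protein genes SRSF3 and SRSF7 fell by 1.24 and 1.11, and SRSF5 rose by 0.68, with its probe sets called in both directions. HNRNPA3 fell by 1.32, after a difference of -0.20 at 12 h. The rises of XPO5 and SRSF5 lost their calls with poly-A scaling.

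Serine and folate metabolism had some of the deepest falls outside the cell cycle. Of 23 genes of this group and of ATF4 targets 12 fell and 2 rose, with a median of -0.85. MTHFD2, the mitochondrial one-carbon enzyme of growing cells, read 9.49, 9.35 and 9.26 at 0 h and 6.28, 6.11 and 6.25 at 24 h, a log2 change of -3.15 (SE 0.104, adjusted p = 1.6e-10). PSAT1, of serine synthesis, read 12.80, 12.82 and 12.84 at 0 h and 10.71, 10.56 and 10.55 at 24 h, a log2 change of -2.21 (SE 0.0619, adjusted p = 4.6e-11). PHGDH, the entry enzyme of the same route, read 12.37, 12.45 and 12.48 at 0 h and 10.66, 10.36 and 10.43 at 24 h, a log2 change of -1.95 (SE 0.0818, adjusted p = 1.15e-09), with all 5 probe sets fallen. For PSAT1 and PHGDH most of the change lay between 12 h and 24 h, at -1.84 and -1.62. Asparagine synthetase (ASNS) fell by 1.91. ATF4 itself differed by -0.52 and its targets TRIB3, CHAC1 and DDIT3 by -0.33, -0.04 and 0.50, none past the test, while NUPR1 and VLDLR rose by 1.65 and 1.14, of which VLDLR lost its call with poly-A scaling.

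Amino acid transporter genes gave 6 falls and 2 rises among 20. The neutral amino acid carriers SLC1A4, at 10.32, 10.39 and 10.34 at 0 h and 8.26, 7.97 and 8.07 at 24 h, a log2 change of -2.25 (SE 0.0778, adjusted p = 2.26e-10), and SLC1A5, at 9.81, 9.87 and 9.86 at 0 h and 8.44, 8.23 and 8.32 at 24 h, a log2 change of -1.52 (SE 0.0712, adjusted p = 3e-09), fell most. SLC1A5 was higher at 72 h than at 24 h, by 0.83 (adjusted p = 5.88e-06). The cationic amino acid transporter SLC7A2 rose by 1.43. Of 16 measured polyamine genes 2 rose, 4 fell and 10 did not pass. Ornithine decarboxylase (ODC1) read 11.86, 11.70 and 11.78 at 0 h and 9.99, 9.65 and 9.72 at 24 h, a log2 change of -2.0 (SE 0.0932, adjusted p = 2.88e-09). Spermidine synthase (SRM), spermine synthase (SMS) and AMD1 fell by 2.54, 1.11 and 0.76. The acetylating enzyme of breakdown, SAT1, read 12.44, 12.37 and 12.43 at 0 h and 13.57, 13.55 and 13.57 at 24 h, a log2 change of 1.15 (SE 0.0508, adjusted p = 1.75e-09), and the oxidase SMOX rose by 0.76. The calls of SAT1 and SMOX were lost with poly-A scaling, which left no rise and 10 falls. Among 25 cholesterol genes 12 fell and 1 rose, with a median of -0.58. Squalene epoxidase (SQLE) read 12.71, 12.72 and 12.70 at 0 h and 11.60, 11.54 and 11.57 at 24 h, a log2 change of -1.14 (SE 0.0568, adjusted p = 5.03e-09). MVD, of the mevalonate pathway, and the sterol sensor INSIG1 fell by 1.47 and 1.33, while SCAP, the escort of the SREBP factors, rose by 0.65 and SREBF2 differed by 0.50 without passing. The call of SCAP was lost with poly-A scaling.

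Mast cell granule and histamine genes rose in 6 of 11 measured cases and fell in none, against 8.01% rises over all genes, with a median of 0.75. With poly-A scaling 2 rose and 2 fell, and the median was 0.15. MRGPRX2, the receptor for basic secretagogues, read 5.33, 5.28 and 5.66 at 0 h and 7.62, 7.68 and 7.52 at 24 h, a log2 change of 2.18 (SE 0.0956, adjusted p = 1.65e-09). NDST2, which sulphates granule heparin, read 10.06, 10.23 and 10.07 at 0 h and 11.99, 12.07 and 11.99 at 24 h, a log2 change of 1.90 (SE 0.0662, adjusted p = 2.39e-10). Chymase (CMA1) read 13.57, 13.61 and 13.65 at 0 h and 14.43, 14.42 and 14.41 at 24 h, a log2 change of 0.81 (SE 0.0508, adjusted p = 3.99e-08). In all 3 the treated arrays were the higher ones. Histidine decarboxylase (HDC), the enzyme of histamine synthesis, read 12.63, 12.71 and 12.58 at 0 h and 13.39, 13.39 and 13.41 at 24 h, a log2 change of 0.75 (SE 0.0594, adjusted p = 3.49e-07). CTSC, which activates granule proteases, and the granule proteoglycan SRGN rose by 1.04 and 0.60. Carboxypeptidase A3 (CPA3) read 14.35, 14.34 and 14.31 at 0 h and 14.54, 14.56 and 14.56 at 24 h, a difference of 0.22 (adjusted p = 0.00343) that did not pass. With poly-A scaling the calls of CTSC, SRGN, CMA1 and HDC were lost.

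IgE receptor genes and their signalling partners gave 5 rises and 1 fall among 25, with a median of 0.14. With poly-A scaling there were 1 rise and 6 falls, and the median was -0.46. The IgE-binding chain FCER1A read 13.58, 13.57 and 13.62 at 0 h and 14.32, 14.34 and 14.35 at 24 h, a log2 change of 0.75 (SE 0.052, adjusted p = 1.05e-07). The signalling chain FCER1G read 6.09, 6.11 and 6.27 at 0 h and 6.94, 6.69 and 6.79 at 24 h, a log2 change of 0.65 (SE 0.089, adjusted p = 5.71e-05), and was 0.58 and under 1.5-fold without the treated replicate 1. The beta chain MS4A2 read 13.68, 13.73 and 13.74 at 0 h and 14.22, 14.26 and 14.28 at 24 h, a difference of 0.54 (adjusted p = 2.27e-06) under 1.5-fold. All treated arrays of the 3 chains were higher than all untreated ones. The tyrosine phosphatase PTPN6 (SHP-1), which dampens KIT and IgE receptor signals, read 10.19, 10.19 and 10.17 at 0 h and 11.63, 11.62 and 11.62 at 24 h, a log2 change of 1.44 (SE 0.055, adjusted p = 5.12e-10). PTPN11 (SHP-2), which carries KIT signals to RAS, read 7.36, 7.17 and 7.06 at 0 h and 6.11, 6.06 and 6.32 at 24 h, a log2 change of -1.03 (SE 0.151, adjusted p = 0.000103). The kinase BTK rose by 1.01, and SYK and LAT differed by 0.02 and 0.18 without passing. The calls of both IgE receptor chains and of BTK were lost with poly-A scaling. With the most changed probe set per gene, 5 genes of this list fell rather than 1.

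Among 18 measured genes of lipid mediators 4 rose and 1 fell. Leukotriene C4 synthase (LTC4S) read 10.09, 10.20 and 10.29 at 0 h and 12.86, 12.90 and 12.89 at 24 h, a log2 change of 2.69 (SE 0.062, adjusted p = 1.26e-11). It rose again between 24 h and 72 h, by 1.08 (adjusted p = 2.68e-07). The prostaglandin-degrading dehydrogenase HPGD read 9.43, 9.12 and 9.10 at 0 h and 10.99, 11.66 and 11.42 at 24 h, a log2 change of 2.14 (SE 0.172, adjusted p = 4.15e-07). Prostaglandin E synthase (PTGES) read 8.38, 8.39 and 8.44 at 0 h and 9.76, 9.67 and 9.64 at 24 h, a log2 change of 1.28 (SE 0.0687, adjusted p = 9.52e-09), with all 3 probe sets risen, and fell between 24 h and 72 h by 0.68 (adjusted p = 1.97e-05). Cyclooxygenase 1 (PTGS1) rose by 0.88, and the inducible PTGS2 differed by -0.12 without passing. ALOX5, which makes the leukotriene precursor, differed by -0.42 (adjusted p = 0.00234) and did not pass. The fall was that of PTGES3, a co-chaperone also known as a prostaglandin E synthase, by 0.83. With poly-A scaling 3 rose and 6 fell, PTGS1 lost its call, and ALOX5 passed as lower.

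Among 45 cytokine, chemokine and receptor genes 6 rose and 2 fell, or 5 and 17 with poly-A scaling. The shares of 13.3% and 4.44% stand beside 8.01% and 10.0% of all genes. IL18 read 7.07, 6.96 and 6.86 at 0 h and 8.79, 8.79 and 8.93 at 24 h, a log2 change of 1.88 (SE 0.0683, adjusted p = 3.47e-10). IL13, a cytokine of allergic inflammation, read 4.40, 4.55 and 4.45 at 0 h and 6.71, 5.88 and 6.23 at 24 h, a log2 change of 1.81 (SE 0.207, adjusted p = 1.11e-05). It had differed by 0.05 at 12 h, and it rose on to 72 h by 2.31 (adjusted p = 7.86e-06). The anti-inflammatory IL10 read 5.73, 5.57 and 5.68 at 0 h and 7.04, 7.04 and 7.00 at 24 h, a log2 change of 1.37 (SE 0.0811, adjusted p = 2.34e-08), and IL6 rose by 1.30. The eotaxin CCL26 read 5.70, 5.21 and 5.60 at 0 h and 7.46, 7.32 and 7.44 at 24 h, a log2 change of 1.90 (SE 0.163, adjusted p = 7.68e-07), and fell between 24 h and 72 h by 1.56 (adjusted p = 2.77e-05). CCL2, a monocyte attractant, read 10.97, 10.95 and 10.86 at 0 h and 9.39, 9.25 and 9.41 at 24 h, a log2 change of -1.58 (SE 0.0639, adjusted p = 8.41e-10). Its course resembled that of FOS, with 24 h above 12 h by 1.19 and 72 h above 24 h by 1.81 (adjusted p = 5.13e-08 and 6.76e-09). IL4 (0.58), TNF (-0.34) and the IL33 receptor IL1RL1 (0.18) did not pass.

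Blood lineage transcription factors gave 4 rises and 1 fall among 30, or 13.3% and 3.33%, beside 8.01% and 10.0% of all genes. GATA2, required for mast cell identity, read 7.76, 7.83 and 7.93 at 0 h and 9.00, 8.99 and 9.08 at 24 h, a log2 change of 1.18 (SE 0.122, adjusted p = 4.24e-06). MITF, which drives granule and survival genes in mast cells, read 11.40, 11.47 and 11.45 at 0 h and 12.41, 12.40 and 12.48 at 24 h, a log2 change of 0.99 (SE 0.0599, adjusted p = 2.89e-08), with 3 of 6 probe sets risen. FLI1 and GFI1 rose by 1.35 and 0.62. ID1, an inhibitor of differentiation factors, read 6.24, 6.24 and 6.35 at 0 h and 4.95, 4.59 and 4.92 at 24 h, a log2 change of -1.46 (SE 0.102, adjusted p = 1.16e-07). SPI1 (0.01), RUNX1 (-0.02), GATA1 (0.44) and MYB (-0.21) did not pass. With poly-A scaling 1 rose and 12 fell, and the rises of GATA2, MITF and GFI1 were lost.

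Lysosomal genes rose in 21 of 48 measured cases and fell in none, with a median of 0.46. With poly-A scaling 6 rose and 5 fell, and the median was -0.15. Of 11 cathepsins 8 rose. Cathepsin genes whose rises lost their calls with poly-A scaling included CTSA, CTSB, CTSH and CTSK. Cathepsin F (CTSF) read 7.55, 7.51 and 7.50 at 0 h and 10.14, 10.03 and 10.06 at 24 h, a log2 change of 2.56 (SE 0.064, adjusted p = 2.31e-11), and cathepsin S (CTSS) read 9.80, 9.68 and 9.63 at 0 h and 11.61, 11.52 and 11.68 at 24 h, a log2 change of 1.90 (SE 0.0692, adjusted p = 3.51e-10). All probe sets of both rose, and the groups were far apart. GM2A, the activator of ganglioside breakdown, read 10.67, 10.74 and 10.78 at 0 h and 12.98, 12.85 and 12.88 at 24 h, a log2 change of 2.17 (SE 0.0607, adjusted p = 4.6e-11). Legumain (LGMN), an asparaginyl protease, read 7.84, 7.97 and 8.20 at 0 h and 9.72, 9.67 and 9.69 at 24 h, a log2 change of 1.69 (SE 0.0874, adjusted p = 7.19e-09), with all 5 probe sets risen. The mannosidase MAN2B1 and the acid glucosidase GAA rose by 1.61 and 1.30. The membrane proteins LAMP1 (0.41), LAMP2 (-0.09) and CD63 (0.38) did not pass. Of the proton pump 3 of 16 subunit genes rose and 1 fell: ATP6V0A1 read 7.46, 7.59 and 7.50 at 0 h and 8.53, 8.43 and 8.49 at 24 h, a log2 change of 0.97 (SE 0.0669, adjusted p = 9.84e-08), and its paralogue ATP6V0A2 fell by 0.67, or by 0.56 and under the fold criterion without the treated replicate 2. The 3 rises of the proton pump lost their calls with poly-A scaling.

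In autophagy 12 of 40 genes rose and 1 fell, with a median of 0.24. With poly-A scaling 2 rose and 10 fell, and the median was -0.36. MAP1LC3B, which coats autophagosomes, read 11.29, 11.33 and 11.35 at 0 h and 12.73, 12.68 and 12.69 at 24 h, a log2 change of 1.37 (SE 0.0509, adjusted p = 4.04e-10). ATG13, of the initiating kinase complex, read 7.13, 7.36 and 7.25 at 0 h and 8.61, 8.40 and 8.42 at 24 h, a log2 change of 1.23 (SE 0.0765, adjusted p = 3.86e-08), with 1 of 3 probe sets passing. The receptor OPTN and the LC3 relative GABARAPL2 rose by 1.08 and 0.92, and ATG3 fell by 0.64. TFEB (0.24), TFE3 (0.29), ULK1 (-0.14) and BECN1 (0.20) did not pass. Rab GTPases of vesicle traffic gave 5 rises and 2 falls among 40, with a median of 0.01, and no rise and 22 falls with poly-A scaling. Their shares of 12.5% and 5.0% stand beside 8.01% and 10.0% of all genes. RAB32 and RAB38, which serve lysosome-related organelles, rose by 0.77 and 0.92, while RAB27A and RAB27B, of granule release, differed by -0.47 and -0.26 and did not pass. The rises of RAB32, RAB38, OPTN and GABARAPL2 lost their calls with poly-A scaling, and the falls of Rab genes numbered 1 without the treated replicate 2.

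In the BCL2 family 1 of 18 rose and 2 fell, shares of 5.56% and 11.1% that are near the 8.01% and 10.0% of all genes. With poly-A scaling 1 rose and 8 fell, and 2 rose without the untreated replicate 2 or the treated replicate 2 or 3. BCL2, which blocks apoptosis, read 9.17, 8.82 and 8.50 at 0 h and 7.95, 7.89 and 7.75 at 24 h, a log2 change of -0.97 (SE 0.137, adjusted p = 7.52e-05), with 1 of 2 probe sets passing and no call with only the 6 arrays in the fit. BNIP3L, a receptor of mitophagy, read 10.38, 10.35 and 10.26 at 0 h and 11.58, 11.60 and 11.62 at 24 h, a log2 change of 1.26 (SE 0.0597, adjusted p = 3.2e-09). BCL2L11 (BIM), a pro-apoptotic protein that KIT signalling holds in check, read 5.00, 4.88 and 4.75 at 0 h and 4.60, 4.79 and 4.63 at 24 h, a difference of -0.20 with overlapping groups. MCL1 differed by 0.37 and BAX by 0.37, both under 1.5-fold. Of 28 genes of death receptors, caspases and inhibitors 3 rose and 4 fell, or none and 16 with poly-A scaling. The shares of 10.7% and 14.3% are near those of all genes, 8.01% and 10.0%. CASP2 read 10.09, 10.05 and 9.99 at 0 h and 8.94, 8.92 and 8.96 at 24 h, a log2 change of -1.10 (SE 0.0635, adjusted p = 1.86e-08), and HTRA2, a mitochondrial protease, read 9.39, 9.39 and 9.42 at 0 h and 10.48, 10.37 and 10.46 at 24 h, a log2 change of 1.04 (SE 0.0646, adjusted p = 3.85e-08), a call that was lost with poly-A scaling. TNFSF10, the death ligand TRAIL, read 10.23, 10.26 and 10.25 at 0 h and 10.87, 10.71 and 10.93 at 24 h, a log2 change of 0.59 (SE 0.0653, adjusted p = 8.3e-06). This value was close to the fold criterion, was -0.01 with poly-A scaling and lost the call without the untreated replicate 1 or either of the treated replicates 1 and 3 (0.54 to 0.58). At 72 h TNFSF10 was higher than at 24 h by 1.08 (adjusted p = 4.03e-07).

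Interferon response genes gave 8 rises and 2 falls among 39 with a median of 0.14. The rises were those of IRF2, IRF3, IRF9, IFI35, SAMD9L, PARP9, PARP14 and DTX3L. With poly-A scaling 3 rose and 13 fell, the median was -0.46, and the last 5 of these rises were lost. IRF2, a transcription factor that competes at interferon-responsive promoters, read 8.49, 8.48 and 8.34 at 0 h and 10.17, 10.06 and 10.13 at 24 h, a log2 change of 1.68 (SE 0.0655, adjusted p = 6.1e-10). IRF3, which induces interferon genes, read 9.64, 9.73 and 9.68 at 0 h and 11.08, 10.97 and 11.03 at 24 h, a log2 change of 1.34 (SE 0.0619, adjusted p = 2.55e-09). IRF9, the DNA-binding subunit of the interferon-activated complex, read 7.29, 7.29 and 7.14 at 0 h and 8.54, 8.38 and 8.45 at 24 h, a log2 change of 1.22 (SE 0.0731, adjusted p = 2.76e-08). The antiviral effectors MX1 (-0.17), OAS1 (0.20), IFIT2 (0.43) and ISG15 (0.57) did not pass. USP18, which removes ISG15 from proteins, fell by 1.08, and the nucleotide hydrolase SAMHD1 by 0.70. The falls of this list numbered 1 without the untreated replicate 1 or 2 or the treated replicate 2 or 3. In antigen presentation 3 of 26 genes rose, or 11.5% beside 8.01% of all genes: the class I gene DLA88 read 9.75, 9.81 and 9.83 at 0 h and 10.70, 10.74 and 10.73 at 24 h, a log2 change of 0.93 (SE 0.105, adjusted p = 1.02e-05), RFX5, a class II promoter factor, rose by 0.86, and ERAP1, a peptide-trimming enzyme, by 0.60. With the most changed probe set per gene 7 genes of this list rose, and with poly-A scaling none rose and 9 fell. ERAP1 lost its call in most alternatives and had a change of 0 with poly-A scaling. B2M (0.43) and CD74 (0.06) did not pass.

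Among 18 integrin genes 3 rose and 2 fell. ITGA4, which binds VCAM1 and fibronectin, read 5.62, 5.42 and 5.65 at 0 h and 8.01, 8.02 and 8.03 at 24 h, a log2 change of 2.45 (SE 0.107, adjusted p = 1.62e-09). ITGAV, of vitronectin receptors, read 10.35, 10.16 and 10.04 at 0 h and 11.94, 12.16 and 12.06 at 24 h, a log2 change of 1.87 (SE 0.131, adjusted p = 1.15e-07), with 2 of 5 probe sets risen. ITGA2, a collagen receptor chain, read 6.36, 6.06 and 6.12 at 0 h and 4.15, 4.14 and 3.83 at 24 h, a log2 change of -2.14 (SE 0.152, adjusted p = 1.32e-07). ITGA4 and ITGAV both fell back between 24 h and 72 h, by 1.53 and 0.93 (adjusted p = 1.22e-06 and 0.000276). Of 23 tetraspanin genes 5 rose and none fell. TSPAN2 read 5.74, 5.83 and 5.61 at 0 h and 7.46, 7.42 and 7.52 at 24 h, a log2 change of 1.74 (SE 0.0929, adjusted p = 9.32e-09), and CD37 rose by 1.02. For integrins and tetraspanins together the 8 rises and 2 falls became 3 and 15 with poly-A scaling, and CD37 lost its call.

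Histone acetylases, deacetylases and demethylases gave 11 rises and 1 fall among 38, with a median of 0.17. With poly-A scaling 1 rose and 11 fell, and the median was -0.43. The acetylases KAT2B and KAT2A, close paralogues, went opposite ways: KAT2B read 5.92, 5.82 and 5.79 at 0 h and 7.92, 8.09 and 8.03 at 24 h, a log2 change of 2.17 (SE 0.133, adjusted p = 3.3e-08), and KAT2A fell by 0.66. Of 15 KDM demethylases 5 rose. KDM3A read 9.58, 9.51 and 9.50 at 0 h and 10.73, 10.65 and 10.64 at 24 h, a log2 change of 1.14 (SE 0.0597, adjusted p = 7.65e-09). KDM5A read 8.81, 8.31 and 7.85 at 0 h and 9.55, 9.83 and 9.72 at 24 h, a log2 change of 1.37 (SE 0.245, adjusted p = 0.000525), with untreated arrays spread from 7.85 to 8.81, and its call was lost without any single array other than the untreated replicate 1 (1.14 to 1.45). KDM6B rose by 1.2 and lost its call without the untreated replicates 2 or 3 or the treated replicates 2 or 3 (1.07 to 1.16). Without the untreated replicate 3 the list had 7 rises and 2 falls, without the untreated replicate 1 it had 2 falls and without the treated replicate 1 it had 3, and with poly-A scaling all 4 named demethylase rises, KDM3A, KDM5A, KDM6B and KDM7A, lost their calls. Of 11 histone deacetylases 1 rose, beside 8.01% of all genes. Clock genes gave 2 rises and 2 falls among 13, or 15.4% each, beside 8.01% and 10.0% of all genes. CRY1, a repressor of the clock, read 9.90, 9.87 and 9.85 at 0 h and 9.04, 9.15 and 9.19 at 24 h, a log2 change of -0.75 (SE 0.0688, adjusted p = 1.43e-06), and NFIL3, a repressor of clock output, read 8.22, 8.27 and 8.24 at 0 h and 7.25, 6.88 and 7.21 at 24 h, a log2 change of -1.13 (SE 0.101, adjusted p = 1.09e-06). Both were back at their starting level by 72 h, with increases between 24 h and 72 h of 0.76 and 1.15 (adjusted p = 8.18e-06 and 6.83e-06). NR1D2 and BHLHE41 rose by 0.89 and 0.89, and both lost their calls with poly-A scaling, NR1D2 also with only the 6 arrays in the fit.

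The study also separated proteins of these cells, and the mRNAs of 4 of the proteins it identified were examined. Annexin A1 (ANXA1), a mediator of the resolution of inflammation, read 11.77, 11.80 and 11.87 at 0 h and 13.23, 13.21 and 13.24 at 24 h, a log2 change of 1.41 (SE 0.0552, adjusted p = 6.28e-10). CAPG, which caps actin filaments, read 11.75, 11.80 and 11.77 at 0 h and 12.88, 12.84 and 12.88 at 24 h, a log2 change of 1.10 (SE 0.0554, adjusted p = 5.8e-09). TARDBP, an RNA-binding protein, read 11.81, 11.85 and 11.82 at 0 h and 10.90, 10.75 and 10.79 at 24 h, a log2 change of -1.01 (SE 0.0597, adjusted p = 2.35e-08). ACTR2, of the actin-branching ARP2/3 complex, read 12.30, 12.35 and 12.38 at 0 h and 12.30, 12.46 and 12.42 at 24 h, a difference of 0.05 with overlapping groups. The call of CAPG was lost with poly-A scaling. These are levels of mRNA, and protein spots are not analysed here.

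Of the other-cell markers that rose, lysozyme (LYZ) read 9.27, 9.35 and 9.14 at 0 h and 10.99, 10.96 and 10.96 at 24 h, a log2 change of 1.71 (SE 0.0666, adjusted p = 5.89e-10). PECAM1, an adhesion molecule of endothelium and blood cells, read 3.97, 3.89 and 3.74 at 0 h and 5.96, 5.55 and 5.11 at 24 h, a log2 change of 1.67 (SE 0.177, adjusted p = 5.47e-06), and 3 of its 4 probe sets did not pass. KDR, a receptor for vascular endothelial growth factor, read 9.17, 9.21 and 9.34 at 0 h and 10.99, 10.85 and 10.89 at 24 h, a log2 change of 1.68 (SE 0.0711, adjusted p = 1.25e-09). PECAM1 and KDR had differed by 0.20 and -0.13 at 12 h and rose on to 72 h, by 2.61 and 0.87 (adjusted p = 9.08e-07 and 4.04e-06). JCHAIN rose by 1.07 and S100A8 by 1.09, and both lost their calls with poly-A scaling. Without the untreated replicate 3 or the treated replicate 2 the macrophage list had 2 rises. The endothelial genes CDH5 and VWF differed by 0.21 and 0.10 at 24 h and did not pass.

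Where 24 h stands in the course was tested directly. Between 12 h and 24 h 213 genes rose (1.41%) and 468 fell (3.10%), and between 24 h and 72 h 297 rose (1.96%) and 274 fell (1.81%). Over the probe sets with a single symbol falls made up 70.4% of the calls from 12 h to 24 h and 51.2% of those from 24 h to 72 h, or 96.2% and 26.2% with poly-A scaling. Of the 1512 genes that had fallen by 24 h, 848 had also been called at 12 h, 428 fell further between 12 h and 24 h, and 1215 were also called at 72 h. Of the 1211 that had risen, the counts were 569, 177 and 926. Neither direct contrast was called for 1014 of the falls and 927 of the rises. The 195 genes with more than a 4-fold fall had a median change of -0.89, -2.70 and -2.58 at 12, 24 and 72 h, and 182 of them differed between 12 h and 24 h. For the 54 rises over 4-fold the medians were 1.5, 2.26 and 2.49, and 51 had been called at 12 h. Since these genes were chosen by their change at 24 h, and the contrasts share arrays, the medians are a description.

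**Figure D4:**
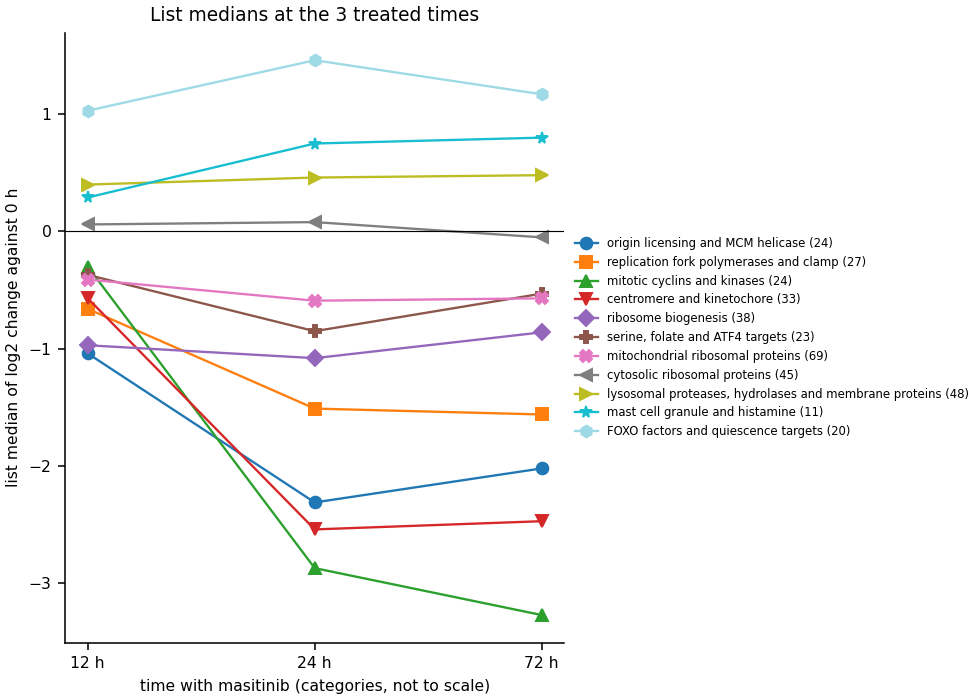
Median log2 change against 0 h (vertical axis) of 11 gene lists at 12, 24 and 72 h (horizontal axis, categories not to scale), each with its number of measured genes in brackets. Mitotic cyclins and kinases went from -0.30 at 12 h to -2.87 at 24 h, and ribosome biogenesis was at -0.97 and -1.08; the median of lysosomal genes, 0.46 at 24 h, is -0.15 with poly-A scaling.

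The lists were also counted over the interval from 12 h to 24 h, without a test between lists. From 12 h to 24 h 27 of 33 kinetochore genes, 19 of 24 mitotic genes, 9 of 11 kinesins, 16 of 24 licensing genes and 16 of 27 fork genes fell, against 2 of 38 ribosome biogenesis genes and none of 69 mitochondrial ribosomal proteins, 35 tRNA synthetases and 46 translation factors. In the lists of serine and folate metabolism and of nuclear transport 7 of 23 and 8 of 45 fell in this interval. Over all genes 3.10% fell in it and 1.41% rose. The lysosomal list had 6 rises among 48 genes from 12 h to 24 h, and the cytokine list 4 among 45.

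A small set had its extreme at 24 h, that is, differed from 0 h, from 12 h and from 72 h in the matching directions. It held 7 genes that were highest at 24 h and 38 that were lowest. PDGFD, a ligand of platelet-derived growth factor receptor beta, read 7.08, 7.11 and 6.98 at 0 h and 9.39, 9.19 and 9.36 at 24 h, a log2 change of 2.26 (SE 0.0747, adjusted p = 1.6e-10), and was above 12 h by 1.03 and fell by 1.16 to 72 h. GDF3, of the transforming growth factor beta family, read 6.80, 6.83 and 6.70 at 0 h and 8.60, 8.62 and 8.59 at 24 h, a log2 change of 1.83 (SE 0.0937, adjusted p = 6.49e-09), with 1.31 against 12 h and -1.15 from 24 h to 72 h. PPARA, the lipid-sensing nuclear receptor, read 6.46, 6.28 and 6.22 at 0 h and 7.95, 7.84 and 7.91 at 24 h, a log2 change of 1.58 (SE 0.078, adjusted p = 4.65e-09). The other 4 were TTN, APOBEC1, GAMT and MIGA1, of which MIGA1 lost its call as a rise with poly-A scaling. TTN, which encodes the muscle protein titin, has 20 probe sets, of which 4 rose.

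Among the 38 genes lowest at 24 h were genes of replication and nucleotide supply, such as RRM1, RRM2, FEN1, POLE2, RFC4, RPA2, DBF4 and DSCC1. MELK was higher again at 72 h, with 1.11 from 24 h to 72 h (adjusted p = 4.26e-07) after -3.13 from 12 h to 24 h. DTD2, a tRNA-editing deacylase, read 8.14, 8.18 and 8.12 at 0 h and 5.14, 4.69 and 5.19 at 24 h, a log2 change of -3.14 (SE 0.109, adjusted p = 2.39e-10). EXOSC8, of the RNA exosome, read 11.38, 11.45 and 11.42 at 0 h and 8.92, 8.75 and 8.92 at 24 h, a log2 change of -2.55 (SE 0.077, adjusted p = 7.78e-11). FABP5, a fatty acid carrier, read 12.11, 12.14 and 12.17 at 0 h and 10.85, 10.71 and 10.73 at 24 h, a log2 change of -1.38 (SE 0.0581, adjusted p = 1.18e-09), and had a difference of -0.43 at 72 h. GUCY1B1, the haem-binding subunit of the nitric oxide receptor, read 8.49, 8.47 and 8.47 at 0 h and 7.29, 7.09 and 7.32 at 24 h, a log2 change of -1.24 (SE 0.0697, adjusted p = 1.48e-08), with 0.00 at 12 h and -0.31 at 72 h. In the 5 genes MELK, DTD2, EXOSC8, FABP5 and GUCY1B1 no treated array reached an untreated one, but they had been chosen by their calls.

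**Figure D5:**
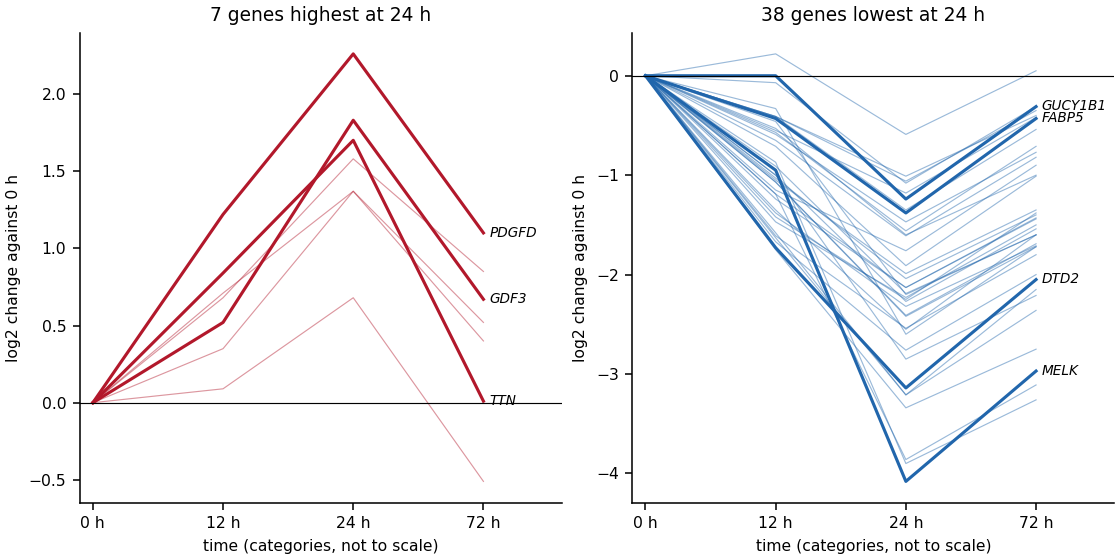
Log2 change against 0 h (vertical axis) at 0, 12, 24 and 72 h (horizontal axis, categories not to scale) for the 7 genes that were highest (left) and the 38 that were lowest (right) at 24 h by direct tests against 12 h and 72 h; each line is the mean of 3 arrays per time. TTN returned to 0.01 by 72 h after 1.70 at 24 h, and FABP5 to -0.43 after -1.38.

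A few genes turned after 24 h or were already on their way back. 4 genes that had risen at 24 h were called as falls at 72 h: SMPDL3A, a phosphodiesterase related to acid sphingomyelinase, from 1.08 to -2.87, DPY19L4 from 0.80 to -1.19, ARPP21 from 1.19 to -0.71 and MLIP from 0.64 to -1.09. No fallen gene turned. With poly-A scaling these 4 rises at 24 h lost their calls. RHEX, a regulator of erythropoietin signalling, and PIP4P2 had risen more by 12 h than by 24 h, RHEX with -0.92 between the 2 times (adjusted p = 3.32e-05). EDNRB, an endothelin receptor, and the stress gene GADD45G shared with FOS and CCL2 a smaller fall at 24 h than at 12 h, by 0.59 and 1.03.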

How the data were processed

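C2 cells were sampled at 0, 12, 24 and 72 h of 100 nM masitinib mesylate, 3 flasks each, on Affymetrix Canine Genome 2.0 arrays (12 arrays). The authors computed the deposited log2 expression values in Partek with background correction, quantile normalisation and median polish. The study's methods name gcRMA for this and the submitters' processing notes RMA. Quantile normalisation gives the arrays a common distribution, so that a change shared by most transcripts is not visible. The values were used as deposited. Of 43035 probe sets 111 controls were left out, and 42924 were tested. By the platform's annotation 29254 had 1 gene symbol, 439 several and 13231 none; 27680 were found by Entrez identifier in the RefSeq gene table. The probe set with the highest mean stood for each of 15115 genes, of which 8254 had more than 1.

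All 12 arrays entered 1 limma fit (limma 3.58.1, R 4.3.3) with a coefficient per time and contrasts of 24 h with 0 h and 12 h and of 72 h with 24 h. P-values were adjusted by Benjamini and Hochberg over all probe sets. Genes were called at over 1.5-fold with an adjusted p below 0.001. The median residual SD was 0.1124 with 8 residual degrees of freedom. The number of arrays, 3 a group, limits the precision. Tested on simulated data for 24 h against 0 h (42924 probe sets), the fit called 84% of 2-fold and 99% of 4-fold differences and 0 unchanged probe sets. The simulated noise was normal and independent, and only 100 probe sets were changed by each amount. Far more were called in the data, so these shares need not carry over. Lists, members and named genes were chosen with earlier results of these data known. Named were the 15 largest called rises and falls without overlap, up to 5 called members of each list, marked members of each list whatever their result, up to 6 genes highest and 6 lowest at 24 h, and called markers of other cells. Any other named gene, and those given for non-passing values or for paralogues, was chosen after its values were seen. Alternatives were the fit to 6 arrays, the methods' analysis of variance with q-values, other thresholds, 40% of dim probe sets left out, other scalings, a replicate block, single arrays left out and the most changed probe set per gene. Tables were handled with Python 3.11.15, pandas 2.3.3 and numpy 2.4.6 and drawn with matplotlib 3.10.9.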

Additional observations from a re-analysis of the deposited data

Results flagged for a closer look

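Outside the named probe sets a signal was also present: of the 13670 probe sets with several or no gene symbols, 1754 passed the test at 24 h, 949 as rises and 805 as falls. The poly-A controls, which are added to each RNA sample and are no transcripts of the cells, read higher at 24 h than at 0 h by 0.603 (log2).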

How the results depend on the processing

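Over the probe sets with 1 symbol 4953 calls were made at 24 h against 0 h. Their number was 4663 with only the 6 arrays, 4590 by the methods' analysis of variance, 5387 at an adjusted p of 0.05, 5022 with equal medians, 4933 with cyclic loess and 4721 without the dim probe sets. With a 2-fold criterion it was 2278 (837 rises and 1441 falls), and with poly-A scaling 14676 (536 rises and 14140 falls). For 24 h against 12 h the 2-fold criterion gave 499 calls (77 rises and 422 falls) and poly-A scaling 2509 (96 rises and 2413 falls). For 72 h against 24 h the 2-fold criterion gave 239 calls (112 rises and 127 falls), and poly-A scaling gave 970 (716 rises and 254 falls). Without single 0 h or 24 h arrays the totals of the 3 comparisons were 4681 to 4806, 990 to 1137 and 780 to 961. Among the 292 genes followed by name, 282 kept their direction and side of the threshold with only the 6 arrays and 282 by the analysis of variance. With poly-A scaling 232 did, 12 gained a call and 48 rises lost theirs, among them TNFSF10 (-0.01) and ERAP1 (0.00), whose changes were at or just below 0. Apart from the stricter criterion and the shift that a scaling applies by construction, the cause was not tested. Only the 6 arrays could give no value for the contrasts with 12 h and 72 h.

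Whether the replicate numbers of the labels pair the flasks is not settled by the arrays. Deviations of same-numbered 0 h and 24 h arrays correlated at -0.329, -0.073 and -0.188, and those of other numbers at -0.143 to 0.274. With a replicate block 4878 calls were made at 24 h against 0 h, and JUN lost its call among the 292 genes. The arrays hold no read depth, and dim probe sets, of which few were called, limit what could be seen.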

Other observations

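In 12 genes different probe sets passed the test in opposite directions at 24 h: BTBD1, CPNE1, MIF4GD, N4BP2L2, PTK2, PXK, SMG1, SRSF5, SUV39H1, TMEM30A, TSC22D1 and VPS13A. They are 12 of the 3199 genes with at least 1 called probe set, and for them no single direction is given by the arrays.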
